A study of Mus musculus with 12 samples.

Results

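Selenoproteins carry selenocysteine, an amino acid that ribosomes insert at a UGA codon which would otherwise end translation. Recoding needs a stem-loop in the 3′ UTR of the transcript (the SECIS element), the protein SECISBP2 that binds it, a dedicated elongation factor and a charged selenocysteine tRNA. The liver makes most of the selenium carrier of blood plasma, SELENOP, and is rich in the peroxidase GPX1. When recoding is inefficient, ribosomes end at the UGA, and transcripts with a UGA ahead of an exon junction can be lost through nonsense-mediated decay.

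The genes described here are 9 selenoprotein genes (Gpx1, Gpx4, Txnrd1, Txnrd2, Selenop, Selenof, Selenok, Selenos and Selenot) and Secisbp2. They were taken from a fixed list of gene names, not by their values, and all 10 of the 10 were among the 10607 genes of the normalized table. Livers came from 3 wild-type (WT) mice and 3 Mettl5 knockout (KO) littermates. A WT and a KO mouse of the same number were taken as 1 litter, which made 3 litters. The KO mice lacked a floxed exon of Mettl5, a methyltransferase gene that acts on 18S rRNA, in the whole body after deletion with CMV-Cre. The line was made in hybrid stem cells of C57bl/6 and 129S6 and backcrossed to B6. The age and sex of each mouse were not given in the sources used here, and every lysate of both genotypes held cycloheximide, which stops ribosomes on their transcripts.

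RNA abundance was read from an input library of each liver, and ribosome occupancy from a second library, of fragments protected by ribosomes against nuclease (RPF). That made 12 libraries in 4 groups of 3. Translation efficiency (TE) is RPF over input. Input libraries held 8326325 to 11825643 counted read pairs, and over the normalized genes 2398804 to 5121304 reads in input and 4623826 to 9184242 in RPF. The deleted gene, Mettl5, had 58.4, 47.8 and 53.1 normalized RPF reads in WT mice 1, 2 and 3 and 8.34, 5.53 and 9.56 in KO mice, which went with the labels in every mouse. Hepatocyte markers were present (10 of 10), with summed levels of 377838 to 468202 normalized input reads in WT and 376007 to 419768 in KO. Markers of stellate cells and fibroblasts (7 of 8 in the table) summed to 1162 to 1346 input and 2609 to 3095 RPF reads in WT and to 1503 to 1531 and 3979 to 4472 in KO, so that the genotypes did not overlap. Markers of erythroid cells (4 of 5 in the table) summed to 600 to 779 input reads in WT and 530 to 592 in KO, again without overlap. The other lists (hepatocytes, Kupffer cells, endothelium, cholangiocytes and lymphocytes) overlapped between genotypes in both assays, as erythroid markers did in RPF. Of cholangiocyte markers 3 of 6 were in the table, and of lymphocyte markers only 1 of 7. The part of all these cell types in the values below was not tested. In whole liver, fewer cells of a type and less RNA in each cell cannot be told apart.

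The recoded codons are shown first, because where the UGA lies separates these genes into classes. Each line gives up to 12 coding bases on either side of the UGA in the longest coding sequence (CDS) of the gene. They were read from the GENCODE vM21 transcript sequences at the annotated selenocysteine positions, with coordinates on GRCm38 (mm10). The UGA is in capitals and written as DNA.
Gpx1: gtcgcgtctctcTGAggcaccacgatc
Gpx4: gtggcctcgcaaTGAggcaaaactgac
Selenot: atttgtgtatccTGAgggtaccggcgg
Selenof: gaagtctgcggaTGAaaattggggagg
Selenop: cttcaagccagcTGAtacttgtgtctt
Txnrd1: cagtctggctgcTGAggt
Txnrd2: gtgactggttgcTGAggc
Selenok: atggctggtggaTGAggaagg
Selenos: tcatctggcggcTGAaac

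In Txnrd1, Txnrd2, Selenok and Selenos the UGA lay at the very end of the protein. It was codon 612 of 613 in Txnrd1 (chr10:82896037-82896039) and codon 526 of 527 in Txnrd2 (chr16:18477772-18477774). The thioredoxin reductases thus have a single codon after selenocysteine. In Selenos it was codon 189 of 190 (chr7:66088844-66088846), and in Selenok codon 92 of 94 (chr14:29973440-29973442). A ribosome that ended at these UGA codons would still have read nearly the whole CDS, so RPF counts over the CDS cannot tell termination from recoding there.

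In Gpx1, Gpx4, Selenot and Selenof the UGA lay inside the protein. It was codon 47 of 201 in Gpx1 (chr9:108339451-108339453) and codon 49 of 195 in Selenot (chr3:58585238-58585240). In Gpx4 it was codon 129 of 253 (chr10:80054737-80054739) in the longest annotated form, and in Selenof codon 93 of 162 (chr3:144590645-144590647). These UGA codons were followed by 154 codons in Gpx1, 146 in Selenot, 124 in Gpx4 and 69 in Selenof.

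Selenop was the one gene of the list with more than a single UGA. The first of its 10 was codon 59 of 380 (chr15:3274848-3274850), and the other 9 ran from codon 259 to codon 377, all in the last exon. The UGA was followed by G in Gpx1, Gpx4, Txnrd1, Txnrd2, Selenok and Selenot, by A in Selenof and Selenos, and by T at the first UGA of Selenop.

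The UGA lay ahead of the last exon junction in 7 of the 9 selenoprotein genes, counting the first UGA of Selenop. The distance was 105 bases in Gpx1, 342 in Gpx4, 78 in Selenof, 357 in Selenop, 470 in Selenot, 83 in Txnrd2 and 5 in Selenok. In Txnrd1 and Selenos it was in the last exon.

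**Figure D1:**
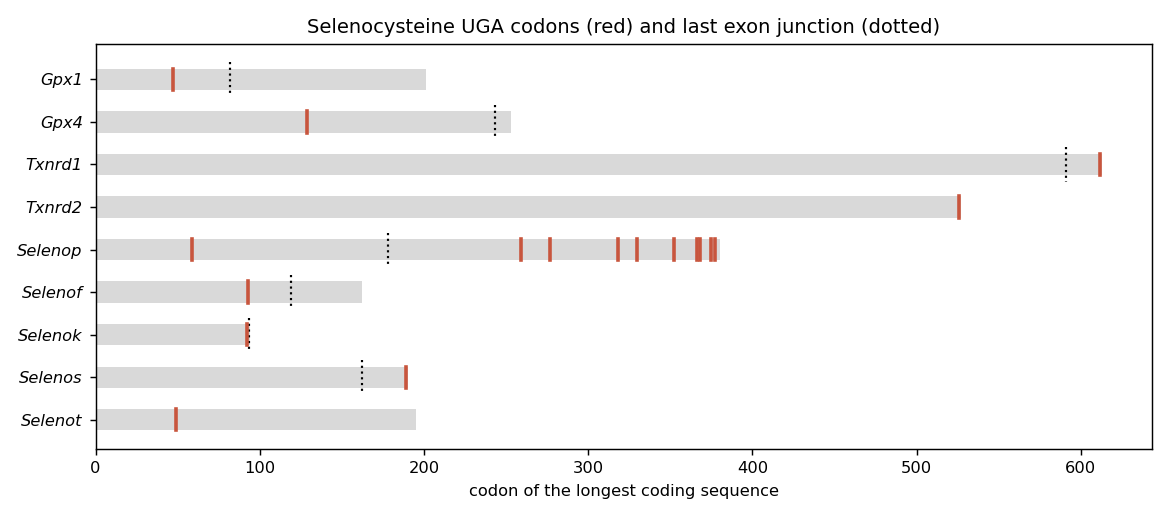
Grey bars are the coding sequences of the 9 selenoprotein genes, to scale in codons, with selenocysteine UGA codons as red ticks and the last exon junction as a dotted line where it falls inside the coding sequence. The UGA is at the end of Txnrd1, Txnrd2, Selenok and Selenos, inside Gpx1, Gpx4, Selenot and Selenof, and present 10 times in Selenop.

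Some of these genes have processed copies elsewhere in the genome, and footprints were kept only where they mapped to 1 place. The share of 28-base windows of the CDS that also occur letter for letter outside the gene was 90.2% in Selenok (230 of 255), 59.2% in Gpx4 (433 of 732) and 18.8% in Selenot (105 of 558), and 0 in the other 7 genes. Of 8986 genes tested, 68.0% had no such window and 4.37% had more than 50%. Copies with a mismatch were not searched for, although the authors placed footprints with up to 2 mismatches. These shares can therefore be too low. RefSeq names 8 pseudogenes of Selenok, 2 of Gpx4 and 1 of Selenot. RPF levels of Selenok and Gpx4 therefore count only part of their CDS.

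In WT livers, Gpx1 and Selenop were far above the other genes of the list in both assays. Levels between genes are compared as normalized reads per kilobase, of exon for input and of CDS for RPF. The CDS was the longest annotated one of each gene, which need not be the main form in liver. Shorter annotated forms were not tried, here or for TE in WT. Gpx1 had 4349 ± 302 normalized input reads per kilobase and Selenop 3745 ± 79.1 (SD, n = 3), and the third gene, Selenos, had 178 ± 11.3. Neighbours in the input order that overlapped between mice were Selenok (108 ± 12.2) and Selenot (104 ± 5.96), Selenof (90.2 ± 4.52) and Txnrd1 (89.6 ± 7.52), and Txnrd1 and Gpx4 (78.5 ± 6.15). Txnrd2 (30.2 ± 4.20) and Secisbp2 (10.8 ± 0.514) were lowest, each apart from its neighbour above.

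By footprints, Gpx1 stood higher still, at 27144 ± 5798 normalized RPF reads per kilobase of CDS, against 6652 ± 1093 for Selenop and 1741 ± 449 for Selenof (SD, n = 3). Txnrd1 (519 ± 59.5) and Selenos (352 ± 47.3) came next, and up to Selenos no gene overlapped with the next one down. Selenot (194 ± 41.7) overlapped with Gpx4 (167 ± 96.8). Gpx4 in turn overlapped with Txnrd2 (97.8 ± 9.36), and Txnrd2 with Selenok (77.3 ± 43.5). Secisbp2 was lowest again, with 15.9 ± 1.15, or 46 to 75 reads per WT library.

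**Figure D2:**
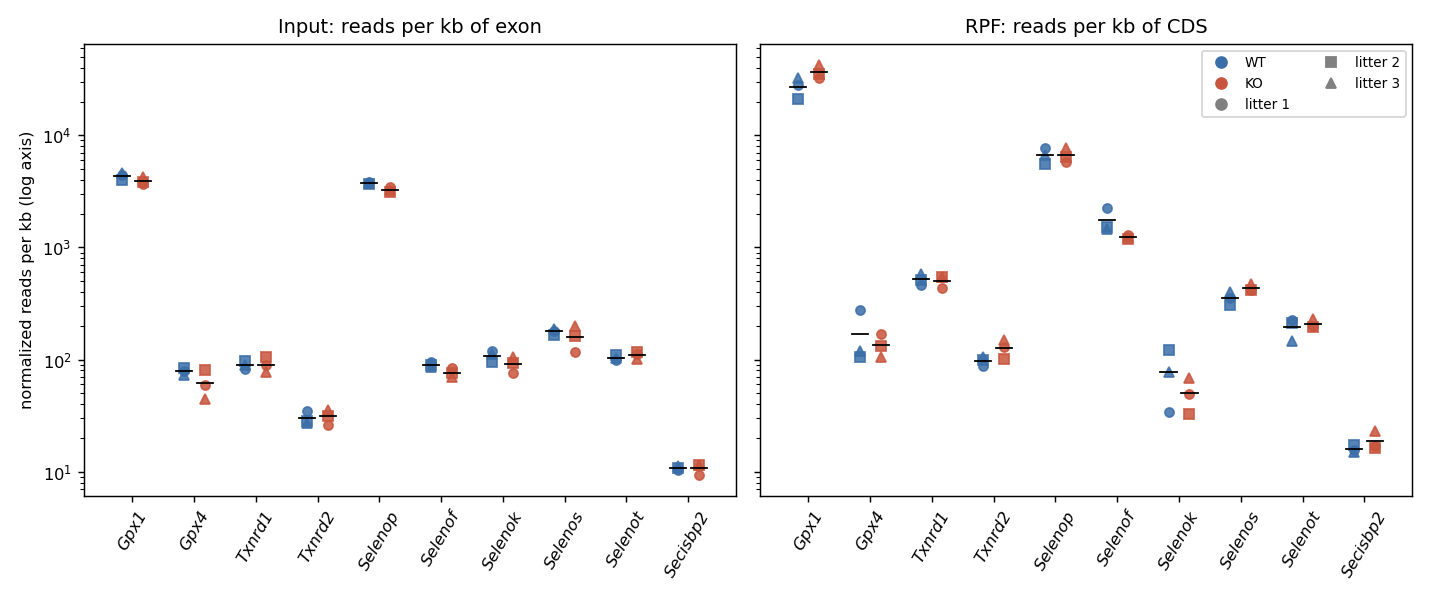
Normalized reads per kilobase of exon in input (left) and per kilobase of CDS in RPF (right) for each gene and mouse, on a log axis, with WT in blue, KO in red, a symbol for each litter and the mean as a black line. Gpx1 and Selenop lie above the other genes in both panels, Secisbp2 is lowest, and Gpx4 and Selenok have the widest spread between mice in RPF.

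How efficiently each transcript was occupied in WT was measured as RPF per kilobase of CDS over input per kilobase of exon, relative to the median of all genes. Selenof (log2 2.60, SE 0.15), Gpx1 (0.98, SE 0.16) and Txnrd1 (0.89, SE 0.15) were above the median gene, and Selenok (−2.22, SE 0.35), Secisbp2 (−1.07, SE 0.22), Selenop (−0.82, SE 0.14), Selenot (−0.75, SE 0.16) and Selenos (−0.66, SE 0.18) were below it. Thus 3 of the 10 passed as higher and 5 as lower in limma at an adjusted p of 0.05, where 31.5% of all 8986 genes passed as higher and 29.6% as lower. Gpx4 (−0.68, SE 0.32, limma adjusted p 0.0799) and Txnrd2 (0.062, SE 0.18, limma adjusted p 0.783) did not pass. The result for Gpx4 depended on the fit: it passed as lower with a block of mouse, which pairs input and RPF of the same liver (−0.68, limma adjusted p 0.0203), with a stricter filter on low values, a mean of 50 for both assays (−0.85, limma adjusted p 0.0345) and without WT mouse 1 (−1.11, limma adjusted p 0.00258), and was at −0.37 without WT mouse 2 (limma adjusted p 0.432). The median of the list was −0.67, against 0 for all genes by construction.

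Among the 3 higher genes, GPX1 reduces hydrogen peroxide with glutathione and was at 1.98 times the median gene (limma adjusted p 2.2e-05). TXNRD1, the cytosolic thioredoxin reductase, was at 1.86 times (limma adjusted p 3.7e-05). SELENOF, a protein of the endoplasmic reticulum (ER) that works with the glycoprotein folding sensor UGGT, was at 6.07 times, in the 98.1 percentile of all genes (limma adjusted p 8.09e-11). The size of this last value rests on the length used for input. The union of annotated Selenof exons measures 5819 bases, 3.84 times its longest coding transcript (1514 bases), and with the transcript length the value was 1.29 (limma adjusted p 9.11e-07). As a plain ratio of reads with no length it was 0.57 (limma adjusted p 0.00388), below Gpx1 at 1.28 on that scale. Txnrd1, whose exons measure 1.96 times its longest coding transcript, also depended on length. Its log2 value of 0.89 fell to 0.55 with transcript length (limma adjusted p 0.00353) and to 0.50 with no length (limma adjusted p 0.00766). Gpx1 went the other way, to 1.19 with transcript length.

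Of the 5 lower genes, Selenop was at 0.566 times the median gene (limma adjusted p 6e-05) although its transcript was second in abundance. SELENOS and SELENOK are ER membrane proteins that take part in the removal of misfolded proteins, and SELENOT is a thioredoxin-like ER protein. With transcript length for input, Selenos (−0.34, limma adjusted p 0.107) and Selenot (−0.24, limma adjusted p 0.220) no longer passed, Gpx4 did here too (−0.85, limma adjusted p 0.0365), and Txnrd2 passed as lower (−0.52, limma adjusted p 0.0193). As a plain ratio of reads, Secisbp2 did not pass (−0.37, limma adjusted p 0.157).

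For the genes with copies elsewhere the direction itself turned. When RPF was set over the number of CDS windows found at 1 place, in place of CDS length, Selenok was at 1.14 (SE 0.35, limma adjusted p 0.00974) and Gpx4 at 0.52 (SE 0.32, limma adjusted p 0.174), while Selenot stayed lower at −0.52 (limma adjusted p 0.01). Input kept its full exon length in this setting, although input was also counted from unique read pairs. Only the RPF side of the ratio was thus adjusted, and the low value of Selenok turned with that adjustment. Selenof, Gpx1, Txnrd1, Selenop, Selenos and Secisbp2 passed in the same direction as before.

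**Figure D3:**
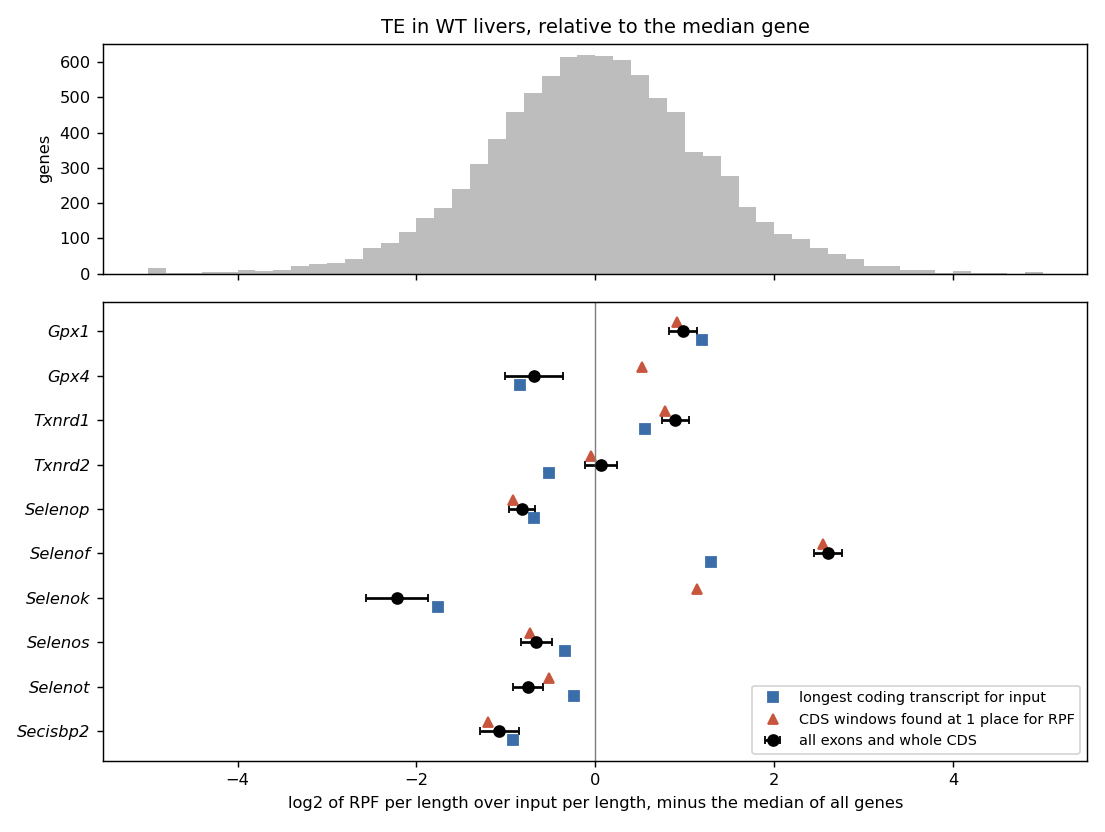
Top, the number of genes at each value of TE in WT livers (log2, relative to the median gene, extreme values pooled in the end bars). Bottom, the 10 genes with their standard error (black), with transcript length for input (blue squares) and with CDS windows found at 1 place for RPF (red triangles): Selenof, Gpx1 and Txnrd1 lie above 0 in all 3, and Selenok moves from −2.22 to 1.14.

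Other selenoprotein genes of liver were spread around the median gene. Of 15 listed, 7 were tested, of which 3 were higher and 1 lower, with a median of 0.15. The highest was Selenoi (1.37, SE 0.14), which encodes an enzyme of phospholipid synthesis, and the lowest was Sephs2 (−1.26, SE 0.21), which makes the selenium donor for selenocysteine and is itself a selenoprotein. Sephs2 was at −0.63 with transcript length for input (limma adjusted p 0.0167), and as a plain ratio of reads it did not pass (−0.39, limma adjusted p 0.123). Of 10 genes of the recoding and selenocysteine synthesis machinery, 4 were higher and 2 lower, with a median of 0.32. They ran from Ncl (1.61, SE 0.15), which encodes nucleolin, to Secisbp2l (−1.24, SE 0.15), the paralog of Secisbp2, which was itself at −1.07.

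Whether transcript abundance changed with loss of METTL5 was tested on the input counts. None of the 10 genes passed in edgeR's quasi-likelihood test, where 0% of all 10057 genes (0 of them) passed, and none of the 10 had an unadjusted p under 0.05, where 3.46% of all genes (348) did. DESeq2, run on the same counts, called none of the 10 either. Log2 fold changes of KO over WT ran from −0.33 for Gpx4 (SE 0.21) to 0.11 for Selenot (SE 0.14), with a median of −0.14 against −0.00037 for all genes.

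The abundant plasma carrier and the ER gene Selenof were the ones whose mice did not overlap in input. Selenop had 10832, 10395 and 10703 normalized input reads in WT mice 1, 2 and 3 and 9860, 8864 and 9194 in KO mice. Selenof had 552, 523 and 499.6 in WT and 489, 437 and 405 in KO. All 3 KO mice were below all 3 WT mice for both, as 2 of the 10 genes did not overlap where 9.25% of all genes did not. The log2 changes were −0.17 for Selenop (SE 0.14) and −0.21 for Selenof (SE 0.14), each with an edgeR adjusted p of 0.999.

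Gpx1 had 6378, 5788 and 6636 normalized input reads in WT and 5267, 5569 and 6072 in KO, with overlap (log2 −0.13, SE 0.14). The other 7 genes also overlapped between genotypes. Secisbp2, with 26 to 40 input reads in WT and 33 to 65 in KO, had a log2 change of −0.011 (SE 0.24), a value whose sign turned with the filter, with the replicate block and when single mice were left out.

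Ribosome occupancy was compared on the RPF columns. None of the 10 genes passed an adjusted p of 0.05 in limma, where 0.489% of all 8994 genes (44) did, and an edgeR fit of recovered whole reads called none of the 10. At an unadjusted p under 0.05 there were 2 of the 10, Gpx1 and Selenof, where 13.4% of all genes (1205) reached it. The list had 5 genes above and 5 below 0, with a median of 0.058 against −0.033 for all genes. The signs for Gpx4, Selenop, Txnrd1 and Selenot turned when single mice were left out.

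Gpx1 and Selenof had RPF values on opposite sides. Gpx1 had 17035, 12586 and 19482 normalized RPF reads in WT mice 1, 2 and 3 and 19712, 21215 and 25806 in KO mice. All 3 KO mice were above all 3 WT mice, although KO mouse 1 was close to WT mouse 3. The log2 change was 0.46 (SE 0.16), or 1.37-fold, with an unadjusted p of 0.00878 and an adjusted p of 0.192 in limma, and KO was higher in 3 of 3 litters. With litter as a replicate block, limma gave an adjusted p of 0.0569. Without WT mouse 2 the log2 change was 0.28.

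Selenof had 1098, 732 and 708 normalized RPF reads in WT and 625, 574 and 599 in KO. All KO mice were below all WT mice, with WT mouse 1 well above the other two. The log2 change was −0.47 (SE 0.15) with an unadjusted p of 0.00708 and an adjusted p of 0.177 in limma, and KO was lower in 3 of 3 litters. The adjusted p was 0.0612 with the replicate block. Without WT mouse 1 the log2 change was −0.27.

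Over all genes, RPF calls numbered 44 and fell to 15 when the trend with CDS GC content was taken out of each library, so the GC content of each gene is given. It was 58.9% in Gpx1 (85.8 percentile of genes tested), 59.3% in Gpx4, 55.9% in Txnrd2, 53.8% in Secisbp2, 52.3% in Selenof, 51.9% in Txnrd1, 51.8% in Selenos, 50.4% in Selenok, 49.5% in Selenop and 47.2% in Selenot, with a median of 52.6% over all genes. After that correction the value of Gpx1 went from 0.46 to 0.28 (SE 0.14, limma adjusted p 0.550), and that of Selenof from −0.47 to −0.45 (SE 0.15, limma adjusted p 0.301). With the replicate block in the same fit, the limma adjusted p was 0.343 for Gpx1 and 0.119 for Selenof.

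Selenos was the third gene whose mice did not overlap in RPF, which made 3 of 10 where 19.8% of all genes did not overlap. It had 200.4, 174 and 228 normalized RPF reads in WT and 237, 239.7 and 268 in KO, a log2 change of 0.31 (SE 0.18, limma adjusted p 0.462). Txnrd2, the mitochondrial thioredoxin reductase, had 139, 158 and 168 in WT and 203, 159 and 236 in KO. The KO mouse had the higher value in 3 of 3 litters, by as little as 0.013 on the log2 scale in litter 2, and its log2 change was 0.35 (SE 0.18, limma adjusted p 0.411).

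The remaining selenoprotein genes showed no ordered difference between genotypes. Selenop had 8830, 6337 and 7583 normalized RPF reads in WT and 6569, 7262 and 8779 in KO (log2 −0.0063, SE 0.14). Txnrd1 had 849, 948 and 1067 in WT and 792, 1003 and 1003 in KO (log2 −0.036, SE 0.15). Both genes overlapped over most of their range.

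GPX4, which reduces lipid peroxides in membranes, was read through fewer footprints. Gpx4 had 212, 79.3 and 90.3 normalized RPF reads in WT and 129, 99.6 and 80.3 in KO, so that WT mouse 1 was far above the other five. The log2 change was −0.19 (SE 0.32, limma adjusted p 0.848) and became 0.25 without WT mouse 1. Selenot had 132, 123 and 85.6 in WT and 117, 113 and 136 in KO (log2 0.12, SE 0.16).

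Selenok and Secisbp2 had the fewest footprints. Selenok had 11, 40 and 42 RPF reads in WT mice 1, 2 and 3 and 20, 15 and 20 in KO mice, or 9.58, 34.1 and 21.7 normalized reads against 13.9, 9.22 and 19.1. Its log2 change of −0.49 (SE 0.35, limma adjusted p 0.580) came from these few reads. It was −0.96 without WT mouse 1, −0.093 without WT mouse 2 and −0.23 without KO mouse 2. Secisbp2, the SECIS-binding factor, had 40.1, 44.4 and 38.7 normalized RPF reads in WT and 43.8, 41.8 and 59.3 in KO. KO mouse 3 was above the rest, and the log2 change was 0.21 (SE 0.22, limma adjusted p 0.716). Without that mouse it was 0.061.

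**Figure D4:**
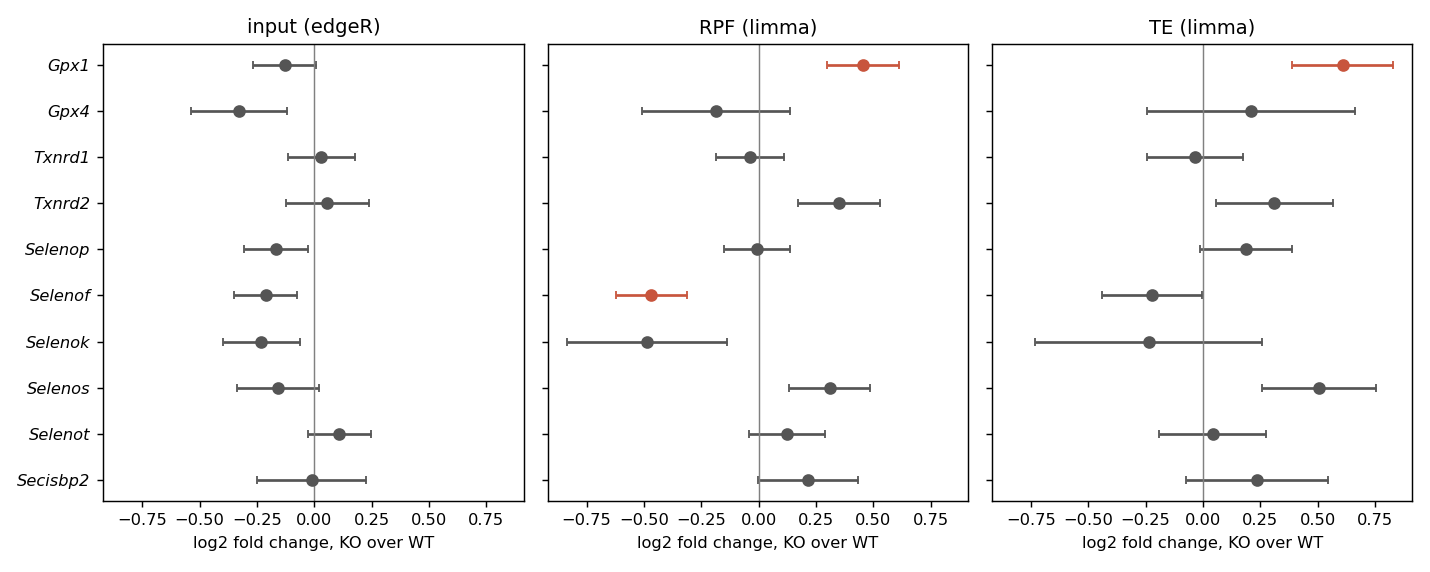
Log2 fold changes of KO over WT for the 10 genes in input (edgeR), RPF and TE (limma), with bars of 1 standard error and points in red where the unadjusted p was under 0.05. Gpx1 lies to the right in RPF and TE and Selenof to the left in RPF, and no gene passed an adjusted p of 0.05.

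TE, the RPF change over and above the input change, was tested in one limma model over the 12 libraries. None of the 10 genes passed an adjusted p of 0.05, where 0% of all 8994 genes (0 of them) passed, and edgeR on whole reads called none of the 10. At an unadjusted p under 0.05 there was 1 of the 10, Gpx1, where 4.7% of all genes (423) reached it. The list had 7 genes above 0 and 3 below, with a median of 0.20 against −0.011 for all genes.

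The TE of Gpx1 was 2.67, 2.17 and 2.94 normalized RPF reads per normalized input read in WT mice 1, 2 and 3 and 3.74, 3.81 and 4.25 in KO mice. The KO mice were all above the WT mice, and the ratio was higher in KO in 3 of 3 litters, by 0.49, 0.81 and 0.53 on the log2 scale. The log2 change was 0.61 (SE 0.22), or 1.53-fold, with an unadjusted p of 0.0125 and an adjusted p of 0.998 in limma. The answer depended on how the pairing of libraries was modelled. With the replicate block of litter the limma adjusted p was 0.634, and with a block of mouse 0.197. With both blocks it was 0.0418, in a fit chosen after the data were seen, in which 9 of 8994 genes passed. With both blocks and the GC trend removed, the value was 0.45, short of the threshold (limma adjusted p 0.155).

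The TE of Selenos was the other one that did not overlap, which made 2 of 10 where 13.4% of all genes did not. It was 0.759, 0.707 and 0.816 in WT and 1.38, 1.00 and 0.914 in KO, above the WT littermate in 3 of 3 litters. The log2 change was 0.51 (SE 0.25), with an unadjusted p of 0.0549 and an adjusted p of 0.998 in limma, and 0.55 after removal of the GC trend. With both blocks the limma adjusted p was 0.382. Without KO mouse 1, which had the lowest Selenos input of the 6 mice, the log2 change was 0.33.

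Selenof, whose RPF and input values were both lower in KO mice, had a TE of 1.99, 1.40 and 1.42 in WT and 1.28, 1.31 and 1.48 in KO (log2 −0.22, SE 0.22). The genotypes overlapped, so the lower RPF value of this gene had no counterpart in TE beyond the spread. Selenop had a TE of 0.815, 0.610 and 0.708 in WT and 0.666, 0.819 and 0.955 in KO. It was lower in KO in litter 1 and higher in litters 2 and 3 (log2 0.19, SE 0.20).

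For the thioredoxin reductases, the TE of Txnrd1 was 1.46, 1.38 and 1.68 in WT and 1.26, 1.35 and 1.84 in KO (log2 −0.034, SE 0.21), and that of Txnrd2 was 0.899, 1.27 and 1.39 in WT and 1.76, 1.15 and 1.51 in KO (log2 0.31, SE 0.25). Both overlapped between genotypes. Gpx4 (log2 0.21, SE 0.45), Selenok (−0.24, SE 0.49), Selenot (0.042, SE 0.23) and Secisbp2 (0.24, SE 0.31) also overlapped, and the SE of Gpx4 and Selenok leaves wide room on either side of 0.

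**Figure D5:**
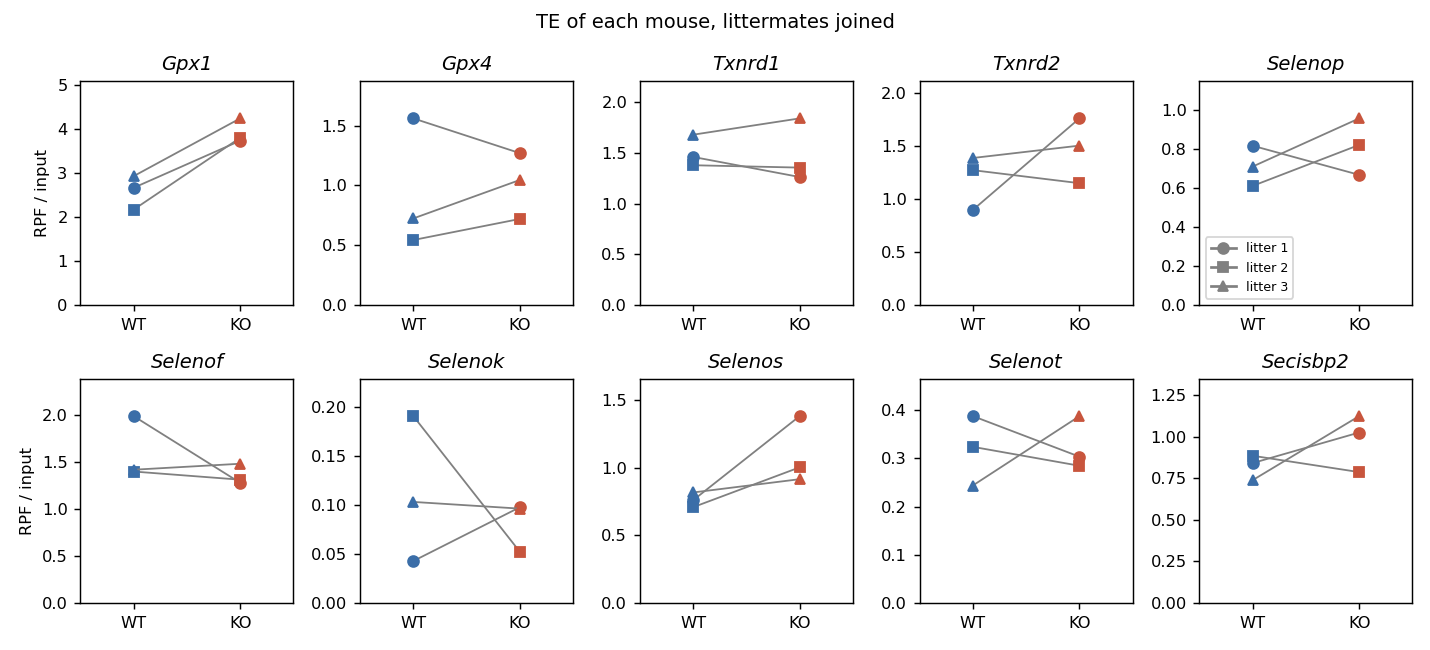
TE (normalized RPF reads over normalized input reads, axes from 0) of each mouse for the 10 genes, with littermates joined by a line. All 3 lines rise for Gpx1 and for Selenos, while those of the other 8 genes go in both directions.

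By place of the UGA, TE values of each class lay on both sides of 0. Of the 4 genes with a UGA inside the protein, the TE log2 change was 0.61 in Gpx1, 0.21 in Gpx4, 0.042 in Selenot and −0.22 in Selenof. Of the 4 with a UGA at the end, it was 0.51 in Selenos, 0.31 in Txnrd2, −0.034 in Txnrd1 and −0.24 in Selenok. Selenop, with its 10 UGA codons, was at 0.19.

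Genes that work with these proteins were counted in the same fits. Of the other selenoprotein genes, 0 of 7 passed in RPF and 0 of 7 in TE in limma, with median log2 changes of 0.090 and 0.12, and 0 of 8 passed in input in edgeR. Those with an unadjusted p under 0.05 in RPF were 3 of the 7, Selenoo, Sephs2 and Selenow, where 13.4% of all genes reached it. Selenoo, a mitochondrial selenoprotein, was at 0.43 (SE 0.17, limma adjusted p 0.290), and Selenow, a small redox selenoprotein, at −0.40 (SE 0.17, limma adjusted p 0.331).

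Sephs2 had 1754, 2488 and 2702 normalized RPF reads in WT and 2173, 3608 and 4196 in KO, which overlapped between genotypes but were higher in the KO mouse of each litter. Its log2 change was 0.49 (SE 0.21) with an adjusted p of 0.319 in limma. With litter as a replicate block it passed (limma adjusted p 0.0319), as did 236 of 8994 genes, and so it did without KO mouse 1 (log2 0.77, limma adjusted p 0.0264). With that block and the GC trend removed it did not (log2 0.39, limma adjusted p 0.111).

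Of the 10 genes of the recoding and synthesis machinery, 0 passed in input, RPF or TE, and 0 had an unadjusted p under 0.05 in any of these. Their median log2 changes were 0.012, −0.018 and 0.058. Of the 2 receptors that take up SELENOP, 1 was tested and did not pass (RPF unadjusted p 0.334). Of 26 redox and glutathione genes without selenocysteine, 24 were tested and 0 passed in RPF, with a median of −0.0046. The 2 of 24 with an unadjusted p under 0.05, where 13.4% of all genes reached it, were the glutathione synthesis genes Gss (−0.46, SE 0.17, limma adjusted p 0.226) and Gclm (−0.29, SE 0.14, limma adjusted p 0.368).

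Among ER partners of SELENOF, SELENOK and SELENOS, 1 of 11 tested passed in RPF, where 0.489% of all genes did. The list had 2 genes above and 9 below 0, with a median of −0.16. The gene that passed was Derl2, a derlin of the pathway that removes misfolded ER proteins, with 451, 573 and 481 normalized RPF reads in WT and 259, 345 and 267 in KO. It fell by 0.79 on the log2 scale (SE 0.16, limma adjusted p 0.0223), with no overlap between genotypes, and its input was at −0.33 (SE 0.16, edgeR adjusted p 0.999). The call rested on the fit. After removal of the GC trend the value was −0.60 (limma adjusted p 0.153), it did not pass without WT mouse 2 or 3 or KO mouse 2 or 3 (limma adjusted p 0.0519 to 0.208), and with the replicate block the limma adjusted p was 0.00643. The TE of Derl2 was at −0.44 (SE 0.22, limma adjusted p 0.998). At an unadjusted p under 0.05 there were 1 higher and 2 lower of the 11 in RPF. Besides Derl2 these were Vcp (0.61, SE 0.24, limma adjusted p 0.292), an ATPase that draws proteins out of the ER membrane, and Ubac2 (−0.61, SE 0.24, limma adjusted p 0.269), both named after their values were seen.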

How the data were processed

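Members and comparison lists were chosen with earlier results of these data known. The authors trimmed reads with BBDuk, aligned input to mm10 with STAR and counted unique read pairs over exons by strand with featureCounts (1.6.0 per the methods, 2.0.3 per the file header), which gave the deposited counts. RPF reads were placed by the authors with RiboToolkit at a single location, without removal of duplicates. The deposited signal columns for input and RPF, although described as RPKM, are whole reads divided by 1 factor per library (100% whole within 0.01 of a read), with no gene length, and no gene has fewer than 1 read in a column. The authors' log2 changes and p-values of TE in the deposited table were not used. Columns without a sample numbered 0.

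Input counts were tested with edgeR 4.0.16 (TMM, filterByExpr, robust quasi-likelihood). RPF, TE and TE in WT were tested with limma 3.58.1 (trend and robust eBayes) on log2(signal + 1) of genes whose mean reached 10 in input and in RPF, over 4 group means and all 12 libraries, so that a change understates that of low genes. TE in WT had exon length over CDS length added and the median subtracted. Tests were two-sided, with Benjamini-Hochberg adjustment over all genes tested and an adjusted p of 0.05 as the threshold. The design assumed normalized values, and edgeR on whole reads was added beside limma. CDS and selenocysteine positions came from GENCODE vM21, and scripts were tested on simulated data. In those data every gene had the same fixed spread, with no effect of mouse or litter. Genes given a 2-fold difference were recovered at 60% in input (200 genes), 19.2% in RPF (198) and 0% in TE (198). A count of 0 in TE is to be read beside that last value, which holds for the simulated spread and not for each gene here.

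WT and KO mice with the same number in their sample titles were taken as littermates. The titles themselves name no litter, and the paper calls the WT mice littermate controls without matching single mice. Statements by litter rest on this pairing. Across genes, deviations of littermates from their group means had a correlation of 0.0816 in litter 1, 0.127 in litter 2 and 0.1 in litter 3 for input, and of 0.242, 0.144 and 0.195 for RPF. Litter was no term in the methods of the study, and the unblocked fit was therefore the main one. The mouse is the unit of replication, with 3 in each group. For input, p-values measure the spread between mice. For RPF, TE and TE in WT, the main fit took the 12 libraries as separate samples with 1 shared spread. It did not pair input and RPF of the same mouse, so those p-values do not measure the spread between mice alone.

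Genes named were the 10 members, Mettl5, and, of each comparison list, those past the threshold or otherwise up to 3 with the smallest unadjusted p under 0.05 in RPF, plus the highest and lowest TE in WT of the other selenoproteins and of the machinery. Also run were DESeq2 1.42.0, RLE scaling, looser and stricter filters, 0.1 and 5 as pseudocount, centring of columns, blocks of litter and mouse, removal of GC and length trends, other lengths and leaving out each mouse. Transcript length, single-place windows (genes with at least 10) and some joint blocks were chosen after the data were seen.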

Additional observations from a re-analysis of the deposited data

How the results depend on the processing

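With 52 results and 817 values from other settings, 756 were held as the same and the sign turned in 39. With the sign kept, 13 lost and 8 gained the threshold, and 1 count moved from 0 to 1. For single genes, the same means that neither sign nor call changed. A count of members of 7 or 9 against 8 was also held as the same, even where the genes behind it changed. For TE in WT with transcript length, Selenos and Selenot dropped out and Gpx4 and Txnrd2 came in. With CDS windows found at 1 place, Selenok passed in the opposite direction. With a mean of at least 50, Selenok and Secisbp2 were not tested. The count of members that passed stayed at 0 in input and in RPF under every alternative run, and ran from 8 to 9 for TE in WT when single mice were left out, with 7 to 9 over the other alternatives. In TE it was 0, and 1 (Gpx1) with the mouse block and replicate block together, a fit chosen after the data were seen. The replicate block of litter alone changed the call of no member in input, RPF or TE, nor that of Derl2, and brought Sephs2 past the threshold in RPF. Exon length for both assays equals the ratio of reads with no length and was not run apart.

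TE in WT turned to 0.52 for Gpx4 and 1.14 for Selenok with CDS windows found at 1 place. By construction this shortens their CDS and leaves the length for input as it was. Txnrd2 went to −0.10 with a mean of at least 50, −0.52 with transcript length and −0.051 with such windows, and from −0.067 to 0.26 without single mice. Secisbp2 input was 0.0017 with no count filter and 0.0031 with the replicate block. Selenop RPF was 0.0066 with centred columns, 0.011 in edgeR on whole reads, 0.081 without the GC trend, with or without the replicate block, and 0.099 without GC and length trends. Txnrd1 TE was 0.0078 without the GC trend, blocks or not. The cause was not tested.

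Leaving out single mice turned signs as follows. Input ran from −0.080 to 0.14 for Txnrd1, −0.040 to 0.17 for Txnrd2, −0.34 to 0.032 for Selenos and −0.063 to 0.096 for Secisbp2. RPF ran from −0.45 to 0.25 for Gpx4, −0.13 to 0.11 for Selenop, −0.12 to 0.077 for Txnrd1 and −0.065 to 0.24 for Selenot. TE ran from −0.11 to 0.64 for Gpx4, −0.20 to 0.073 for Txnrd1, −0.78 to 0.25 for Selenok and −0.14 to 0.20 for Selenot. Over all genes, RPF calls numbered 44, against 236 with the replicate block, 15 without the GC trend, 0 without KO mouse 2 and 226 without KO mouse 1. The SE of TE changes, 0.20 to 0.49 over the members, limits what 3 mice a group could show.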
